A study of Mus musculus with 10 samples.

Results

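The erythroid programme was taken here as 39 named genes, out of 22367 protein-coding genes, that carry out or control red cell formation. They are 9 transcription factors and cofactors, 5 receptor and signalling genes, 9 genes of iron uptake and heme synthesis, 6 globin genes, 8 genes of membrane and blood group proteins and 2 further red cell genes. All 39 were found in the GENCODE M1 annotation of mouse assembly NCBIM37, with the beta spectrin gene Sptb listed there under its older symbol Spnb1. For each gene, peaks of 6 ChIP-seq peak lists were taken in the gene window, meaning 5 kb on either side of any transcription start site (TSS) plus the gene body, and in the TSS window of 5 kb alone. The other 22328 genes were read the same way.

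Red cell precursors of the fetal liver switch on a shared set of genes under Klf1, Tal1 and their partners, while signals from Kit and the erythropoietin receptor keep them dividing and alive. They then load hemoglobin, made from alpha-type and beta-type globin chains and heme, and build a membrane skeleton of spectrin and ankyrin. H3K27me3 is the histone mark that polycomb repressive complex PRC2 places on silent genes, and Mtf2 (also Pcl2) is an accessory protein of PRC2 that binds DNA rich in unmethylated CpG.

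Fetal liver cells of e14.5 embryos were sorted with antibodies to CD71 and Ter119 into a CD71+Ter119-/lo fraction, of less mature cells, and a CD71+Ter119high fraction, of more mature cells. Pcl2+/+ (WT) and Pcl2-/- (Mtf2-null) embryos on a C57Bl/6 background were used, the null allele being constitutive and made by gene targeting, so that it was present in every cell of the embryo. H3K27me3 was immunoprecipitated from both genotypes and both fractions and Mtf2 from both WT fractions, with 500000 cells per sample, and an IgG control was made for each genotype and fraction. In all, 10 libraries were used, 6 ChIP and 4 IgG, with 1 library per condition, although the methods state replicates of 2. No value therefore has a spread between replicates, and no test of any difference could be made. The WT H3K27me3 and Mtf2 lists of a fraction share an IgG library. The opening of the series description names another histone mark, and the libraries were read as H3K27me3 from their own labels. Peak lists hold no expression values, so neither the loss of Mtf2 nor the sorted cell type can be checked from transcripts.

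The lists differed in ways that bear on every count below. They held between 1407 peaks (Mtf2-null CD71+Ter119-/lo H3K27me3) and 28918 peaks (CD71+Ter119-/lo Mtf2), from 15669899 to 67169672 unique tags per ChIP library. Unique and total tags are as the peak caller's file headers count them. For Mtf2, unique tags were 34.6% of all tags in CD71+Ter119-/lo and 39.7% in CD71+Ter119high cells, against 78.4% to 85.4% for H3K27me3. These shares were not read as the share of reads that match a single place in the genome. How reads that match several places were handled is not given in the sources used here. The median false discovery rate (FDR) that the peak caller gave ran from 0.120% to 100%, and was 100% in the Mtf2-null CD71+Ter119-/lo list. Peak summits also differed in how repeated their sequence is. In 200 bases around each summit, the share of 25-base words found once in the genome was under 50% for 98.9% and 97.7% of Mtf2 peaks in CD71+Ter119-/lo and CD71+Ter119high cells. The same held for 82.9% and 13.3% of WT H3K27me3 peaks and for 34.0% and 90.1% of Mtf2-null H3K27me3 peaks, in the same order of fractions. Over the genome it held for 18.2% of 12799 windows placed every 200 kb. The part of repeated sequence in any peak call was not tested.

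The sequences of 200 bases around a summit are shown first for the peak nearest a TSS of one of the 39 genes in each list. No peak of the Mtf2-null CD71+Ter119high list reached any of the genes. All are from NCBIM37, 5′ to 3′ on the strand of the gene, with CG dinucleotides in capitals.
Ank1, H3K27me3, WT CD71+Ter119high, chr8:24085150-24085349, plus strand, across the gene start: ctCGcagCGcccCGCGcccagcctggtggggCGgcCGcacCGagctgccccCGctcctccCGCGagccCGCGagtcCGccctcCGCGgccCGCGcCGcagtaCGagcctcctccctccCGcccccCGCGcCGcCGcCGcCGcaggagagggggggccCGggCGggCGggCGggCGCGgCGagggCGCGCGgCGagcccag
Ank1, H3K27me3, WT CD71+Ter119-/lo, chr8:24084049-24084248, plus strand, upstream of the gene: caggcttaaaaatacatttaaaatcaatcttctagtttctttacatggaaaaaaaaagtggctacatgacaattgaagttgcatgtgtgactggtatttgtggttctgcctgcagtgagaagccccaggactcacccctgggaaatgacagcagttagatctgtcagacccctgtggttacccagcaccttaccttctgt
Rhd, H3K27me3, Mtf2-null CD71+Ter119-/lo, chr4:134422443-134422642, plus strand, in an intron: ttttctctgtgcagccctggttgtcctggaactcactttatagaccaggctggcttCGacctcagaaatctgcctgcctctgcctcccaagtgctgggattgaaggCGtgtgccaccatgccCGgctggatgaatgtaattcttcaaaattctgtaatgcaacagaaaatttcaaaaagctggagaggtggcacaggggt
Kit, Mtf2, WT CD71+Ter119-/lo, chr5:76041313-76041512, plus strand, in an intron: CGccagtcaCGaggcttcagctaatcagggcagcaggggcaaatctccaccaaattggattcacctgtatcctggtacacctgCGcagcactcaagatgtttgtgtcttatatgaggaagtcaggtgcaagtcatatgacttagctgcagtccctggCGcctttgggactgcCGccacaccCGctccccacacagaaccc
Sptb, Mtf2, WT CD71+Ter119high, chr12:77754777-77754976, minus strand, in an intron: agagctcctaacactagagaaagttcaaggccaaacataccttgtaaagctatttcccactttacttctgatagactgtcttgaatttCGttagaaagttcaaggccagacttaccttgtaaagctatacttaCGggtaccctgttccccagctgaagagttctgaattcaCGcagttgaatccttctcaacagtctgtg
The Zfpm1 summit is shown as well, chosen after its values were seen, because it was the only one of these sites called for H3K27me3 in both genotypes.
Zfpm1, H3K27me3, WT CD71+Ter119high, chr8:124859955-124860154, plus strand, in a coding exon: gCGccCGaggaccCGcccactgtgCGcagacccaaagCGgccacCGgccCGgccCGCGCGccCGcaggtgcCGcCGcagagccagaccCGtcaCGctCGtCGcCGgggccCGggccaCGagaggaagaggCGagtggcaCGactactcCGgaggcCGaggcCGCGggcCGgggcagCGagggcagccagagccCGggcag
The Ank1 sequence at the gene start held 37 CG dinucleotides and the Zfpm1 sequence 29. The Kit sequence held 6, the Rhd and Sptb sequences 3 each, and the upstream Ank1 sequence 0.

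Few erythroid genes carried a peak in any list. H3K27me3 peaks lay in the gene windows of 2 genes in WT CD71+Ter119-/lo cells (Ank1 and Sptb), or 5.13% beside 6.46% of the other genes. In WT CD71+Ter119high cells they lay at 3 genes (Ank1, Bcl11a and Zfpm1), or 7.69% beside 13.2%. In Mtf2-null CD71+Ter119-/lo cells they lay at 2 genes (Rhd and Zfpm1), or 5.13% beside 2.90%, and in Mtf2-null CD71+Ter119high cells at 0 genes beside 5.25%. Mtf2 peaks lay at 2 genes in CD71+Ter119-/lo cells (Kit and Sptb), or 5.13% beside 18.8%, and at 2 genes in CD71+Ter119high cells (Sptb and Uros), or 5.13% beside 5.15%. A peak of at least 1 list was found at 7 of the 39 genes, or 17.9%, beside 34.0% of the other genes. The other 32 genes held no called peak, which says that none passed the authors' cutoff and not that the mark was measured as absent.

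Keeping only peaks with at least 50% of their summit words found once, an alternative added after seeing the data, changed which genes were left. For WT H3K27me3 it left 1 gene in CD71+Ter119-/lo cells (Ank1), beside 2.61% of the other genes, and the same 3 genes in CD71+Ter119high cells, beside 12.2%. For Mtf2-null H3K27me3 it left 1 gene in CD71+Ter119-/lo cells (Zfpm1), beside 2.19%, and 0 in CD71+Ter119high cells, beside 1.01%. For Mtf2 it left 0 genes in both fractions, beside 0.748% and 0.255%.

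The TSS window, which has the same length for every start site, gave 2 genes in WT CD71+Ter119-/lo H3K27me3 (Ank1 and Sptb) beside 3.28% of the other genes, and 2 in WT CD71+Ter119high (Ank1 and Bcl11a) beside 11.6%. It gave 1 gene, Rhd, in Mtf2-null CD71+Ter119-/lo beside 1.27%, and 0 genes in Mtf2-null CD71+Ter119high beside 1.63%. The Mtf2 peaks of Kit and Sptb lay in the TSS window in CD71+Ter119-/lo cells beside 8.45% of the other genes, and those of Sptb and Uros in CD71+Ter119high cells beside 1.50%. A single gene makes up 2.56% of the 39. Median gene length was alike, at 15.3 kb for the erythroid genes and 15.4 kb for the others. The 7 genes with a peak in any list were all longer, from 23.8 kb (Uros) to 176 kb (Ank1). A longer gene has a wider gene window, and a gene with more starts has more TSS windows, Ank1 having 17 TSS. By role, a gene window peak of any list was found at 3 of 8 membrane genes, 2 of 9 transcription factors, 1 of 5 receptor and signalling genes, 1 of 9 iron and heme genes, 0 of 6 globin genes and 0 of the 2 other red cell genes. The share over the 22328 other genes was 34.0%, and gene length was not taken into account.

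**Figure D1:**
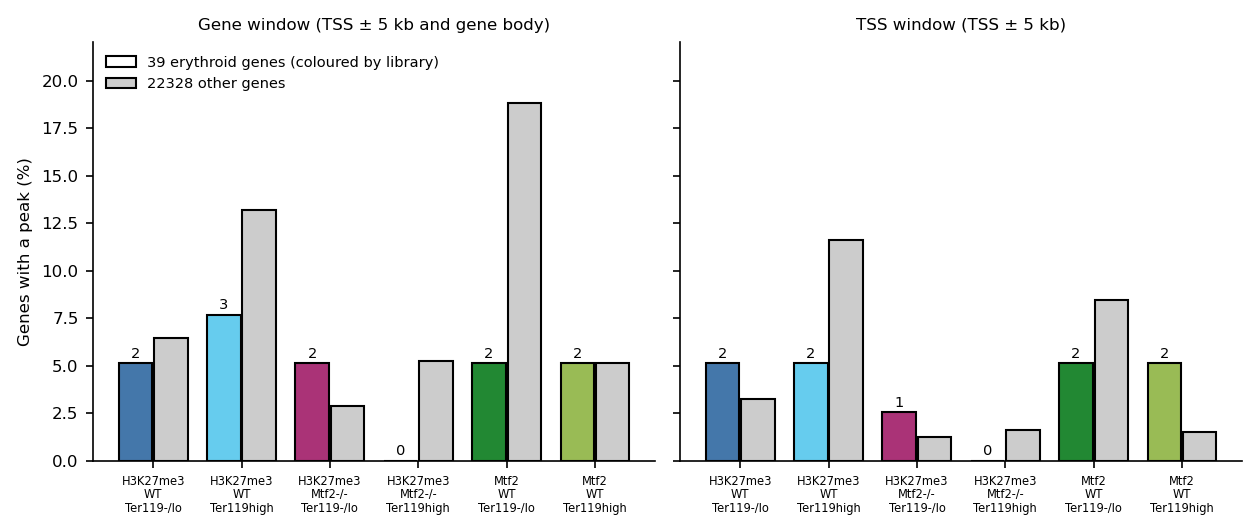
Share of genes with a peak (%), for the 39 erythroid genes (coloured bars, with their number above) and the 22328 other genes (grey bars), in each of the 6 peak lists; left, gene window, right, TSS window. The coloured bars stand for 0 to 3 genes, and the widest gap is that of Mtf2 in CD71+Ter119-/lo cells, at 5.13% beside 18.8%.

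Ank1, which encodes the ankyrin that ties spectrin to the red cell membrane, held the H3K27me3 peak with the highest score and the most tags in a TSS window of these genes, though not the highest fold enrichment. In WT CD71+Ter119high cells the peak chr8:24084324-24086581 spanned the gene start over 2258 bases, with 154 tags, a score of 236, a fold enrichment of 7.94 over IgG and an FDR of 2.13%. Its summit lay 66 bases upstream of the gene start, and 92.7% of peaks in that list had a score no higher and 48.5% a fold enrichment no higher. The score is the p of the peak caller on a −log10 scale, times 10. The tags amounted to 5.12 per 1000000 unique tags, here called normalised tags, with a 95% exact Poisson interval of 4.35 to 6.00 that covers counting error only.

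In WT CD71+Ter119-/lo cells the called Ank1 peak was a different one, chr8:24083611-24084214. It was 604 bases long, with 16 tags, a score of 56.1, a fold enrichment of 9.14 and an FDR of 11.8%. Its summit lay 1.17 kb upstream of the gene start, and the peak ended 110 bases before the CD71+Ter119high peak began. The 2 WT peaks therefore shared no base, and only the CD71+Ter119high peak covered the CpG-dense start. Neither Mtf2-null list had a peak in the Ank1 window, where the nearest lay 857 kb and 156 kb from a TSS in CD71+Ter119-/lo and CD71+Ter119high cells. The nearest Mtf2 peaks lay 126 kb and 229 kb away. Ank1 has 17 annotated TSS over 176 kb, and both further WT CD71+Ter119high peaks in its window were intronic, chr8:24112150-24112891, enriched 6.42-fold (24 tags), and chr8:24202310-24202899, enriched 11.1-fold (26 tags). The second of them lay 3.67 kb from an internal TSS, with a score of 76.2 and an FDR of 11.5%.

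Sptb, the gene of erythroid beta spectrin, held the only site in these genes called for both Mtf2 and H3K27me3. It lay in an intron, with summits 56.6 to 57.1 kb into the gene and the peaks 3.08 to 3.13 kb from an internal TSS, and not at the gene start. In WT CD71+Ter119-/lo cells the H3K27me3 peak chr12:77753989-77755253 had 37 tags, a score of 116, a fold enrichment of 10.2 and an FDR of 7.27%, and ranked 110 of 4992 by score. Mtf2 at the same place in these cells, chr12:77754004-77755681, had 80 tags, a score of 253, a fold enrichment of 14.3 and an FDR of 0.0300%. In CD71+Ter119high cells the Mtf2 peak chr12:77754030-77755575 had 44 tags, a score of 163, a fold enrichment of 13.6 and an FDR of 21.9%, and ranked 41 of 5309 by score. Mtf2 gave 2.76 (2.19 to 3.43) and 2.81 (2.04 to 3.77) normalised tags in the 2 fractions. These tags come from called peaks of 1678 and 1546 bases, and a difference between the fractions was not tested. The H3K27me3 peak shared 1250 bases with the CD71+Ter119-/lo Mtf2 peak, and the Mtf2 peaks shared 1546 bases with each other.

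The sequence of this Sptb site is mostly repeated elsewhere. Of its 25-base words, 4.82%, 4.17% and 2.33% were found once in the genome in the H3K27me3 peak and the CD71+Ter119-/lo and CD71+Ter119high Mtf2 peaks, whereas the Ank1 peak at the gene start had 100%. No H3K27me3 peak of WT CD71+Ter119high cells lay closer than 49.6 kb to a Sptb TSS, that one being beside the start of Plekhg3.

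Rhd, which encodes a Rh blood group protein, held an H3K27me3 peak only in the list of Mtf2-null CD71+Ter119-/lo cells. The peak chr4:134421945-134422626 lay in an intron with its summit 2.09 kb after the gene start. It had 26 tags, a score of 57.1, a fold enrichment of 6.38 and an FDR of 100%, or 0.702 normalised tags (0.459 to 1.03). Of its 25-base words, 56.6% were found once. The Rhd-associated protein gene Rhag held no peak, and the nearest was a CD71+Ter119-/lo Mtf2 peak 9.74 kb from its start with 34 tags. Slc4a1 (band 3, the anion exchanger), Kel and Ermap (blood group proteins) and Aqp1 (a water channel) also held none, and their nearest peaks of any list lay 27.1, 42.1, 120 and 48.8 kb from a TSS.

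**Figure D2:**
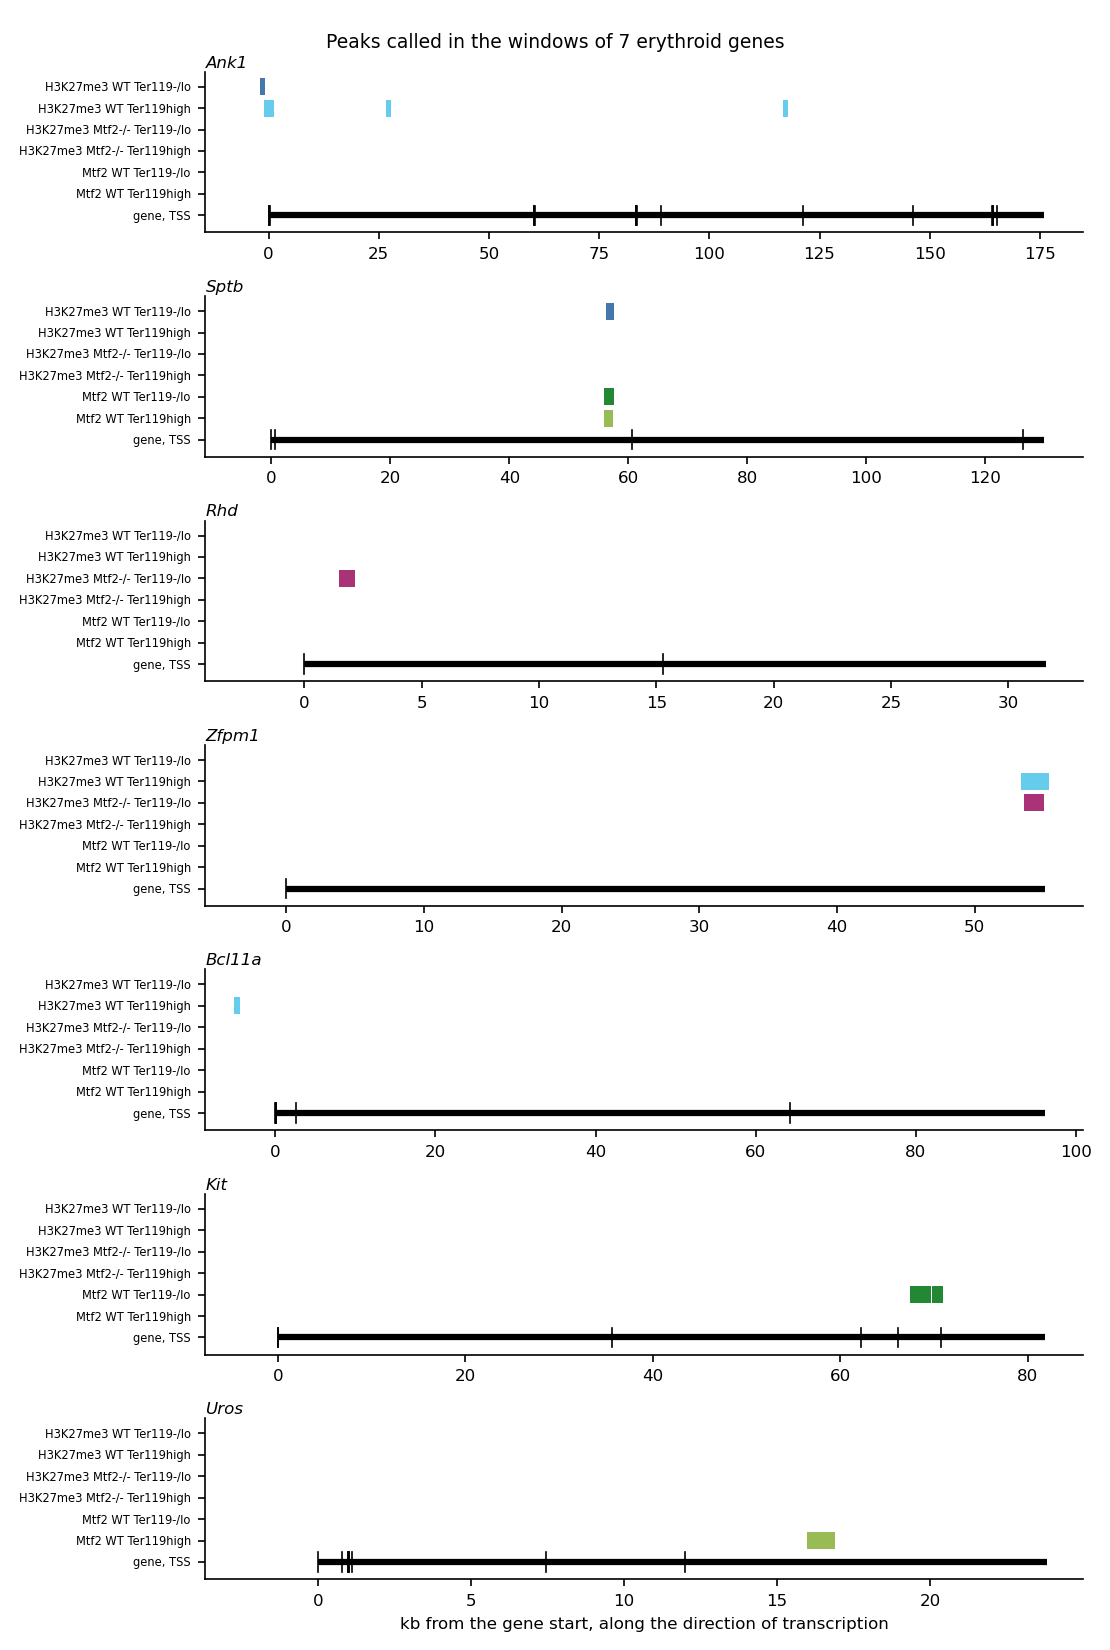
Peaks in the windows of the 7 erythroid genes that had one, by kb from the gene start along the direction of transcription; the black bar is the gene, vertical ticks are annotated TSS, and each row is a peak list (short peaks are widened to be visible). At Ank1 the 2 WT H3K27me3 peaks near the start lie side by side, at Sptb the 3 peaks coincide 56.6 to 57.1 kb into the gene, and at Zfpm1 the WT and Mtf2-null peaks coincide near the 3′ end.

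Among the transcription factors, Zfpm1 held H3K27me3 at its 3′ end in both genotypes, but in different fractions. Zfpm1 (FOG1) is the zinc finger cofactor of GATA1. In WT CD71+Ter119high cells the peak chr8:124859405-124861431 had 104 tags, a score of 174, a fold enrichment of 8.99 and an FDR of 3%. In Mtf2-null CD71+Ter119-/lo cells the peak chr8:124859582-124861081 had 63 tags, a score of 138, a fold enrichment of 8.20 and an FDR of 100%, and was ranked 4 of 1407 by score. The second peak lay wholly inside the first, with summits 26 bases apart, in a coding exon 54.0 kb from the gene start. Both summits also lay between the ends of the annotated gene Gm20388. Normalised tags were 3.46 (2.83 to 4.19) in WT CD71+Ter119high and 1.70 (1.31 to 2.18) in Mtf2-null CD71+Ter119-/lo cells. These tags come from called peaks of 2027 and 1500 bases, and their difference was not tested. No peak was called there in WT CD71+Ter119-/lo or Mtf2-null CD71+Ter119high cells. The site was GC-rich, with 69.9% GC and a ratio of observed to expected CpG of 0.899 in 1 kb around the WT summit, and 100% of its words were found once. The Zfpm1 start itself, also CpG-dense, had no peak in any list.

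Bcl11a, a repressor of fetal-stage and embryonic globin genes, held an H3K27me3 peak in WT CD71+Ter119high cells. The peak chr11:23972889-23973694 lay upstream, its summit at -4.96 kb from the gene start. The summit also lay between the ends of the annotated gene A830031A19Rik, 1.96 kb from its start. It had 26 tags, a score of 60.4, a fold enrichment of 5.61 and an FDR of 21.2%, and 37.3% of the list had a score no higher and 7.84% a fold enrichment no higher.

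The remaining 7 factors had no peak in their windows. They were Klf1, the erythroid Krüppel-like activator, Tal1, Lmo2 and Ldb1 of the DNA-bound complex that joins enhancers to promoters, Nfe2, the repressor Gfi1b, and Myb, which keeps progenitors dividing. Klf1 had the nearest WT H3K27me3, 27.2 kb away in CD71+Ter119high and 34.1 kb in CD71+Ter119-/lo cells, in both cases beside the start of Mast1. For Tal1 the nearest WT CD71+Ter119high peak was 130 kb away and for Myb 988 kb. Ldb1 had a CD71+Ter119-/lo Mtf2 peak at 16.2 kb, with 48 tags and a fold enrichment of 14.1, and Myb had Mtf2 peaks at 50.2 and 51.2 kb in CD71+Ter119-/lo and CD71+Ter119high cells. The H3K27me3 peaks nearest Gfi1b and Lmo2 were those of Mtf2-null CD71+Ter119high cells, at 21.1 and 32.6 kb.

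ChIP-qPCR primers of the study for Tal1 and Stat5b place the regions assayed at these genes. They are shown 5′ to 3′ in lower case, with nothing in capitals.
Tal1 forward: ctgggtgttgagatacggaaa
Tal1 reverse: gccgttgtctagcctcttaag
Stat5b forward: cagccaacacatctaaacacag
Stat5b reverse: gtgagcagtgaacgagtgtag
The Tal1 amplicon, chr4:114728891-114729023, was centred 74 bases upstream of the gene start. The Stat5b amplicon, chr11:100683737-100683864, was centred 42 bases downstream of an internal TSS, 28.2 kb into the gene. Neither overlapped a peak. Nearest peaks were 87.1 kb from the Tal1 amplicon and 50.5 kb from the Stat5b amplicon, both in the CD71+Ter119-/lo Mtf2 list.

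Kit, the stem cell factor receptor, was the only receptor or signalling gene with a peak. In CD71+Ter119-/lo cells, Mtf2 peaks lay side by side in introns far from its promoter. The peak chr5:76038409-76040583 had 86 tags and was enriched 14-fold, with a score of 227 and an FDR of 0.05%. The peak chr5:76040671-76041933 had 42 tags and was enriched 12.8-fold, with a score of 98.2 and an FDR of 0.0700%, and covered an internal TSS 70.8 kb after the gene start. No peak of any list lay in the window of the CpG-dense start of Kit. Of the words of the 2 peaks, 7.31% and 35.8% were found once. No H3K27me3 peak overlapped them. A Mtf2-null CD71+Ter119-/lo H3K27me3 peak of 25 tags lay 14.3 kb from a Kit TSS, just past the 3′ end of the gene, and the nearest WT one lay 74.5 kb away. The erythropoietin receptor gene Epor had WT H3K27me3 peaks at 21.3 kb in CD71+Ter119high and 25.2 kb in CD71+Ter119-/lo cells, both nearest to Rgl3. Stat5a and Stat5b, which carry the receptor's signal, and Bcl2l1, the survival gene Bcl-xL, had no peak within 50 kb of a TSS. The 3′ end of Stat5b, at chr11:100642045, lay nearer to peaks than its TSS did. The CD71+Ter119-/lo Mtf2 peak on that side was chr11:100632320-100633230.

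Of the iron and heme genes, Uros had a peak. Uros encodes uroporphyrinogen III synthase. In CD71+Ter119high cells a Mtf2 peak, chr7:140884877-140885781, lay in an intron 16.6 kb after the gene start and 3.98 kb from an internal TSS. It had 18 tags, a score of 52.5, a fold enrichment of 8.64 and an FDR of 9.93%, and 27.8% of its words were found once. A WT CD71+Ter119high H3K27me3 peak of 22 tags lay 5.45 kb from the Uros start, beside Bccip, just outside the window. The other 8 genes of the heme path and of iron supply had none: Alas2, the first step of erythroid heme synthesis, Alad, Urod, Cpox and Ppox, Fech, which inserts the iron, Tfrc, the transferrin receptor that is the CD71 of the sort, and the mitochondrial iron carrier Slc25a37. Outside the windows, Mtf2 peaks of both fractions overlapped upstream of Tfrc, sharing 874 bases at 10.7 and 12.1 kb from a TSS, with 106 tags in CD71+Ter119-/lo and 24 in CD71+Ter119high cells. They also overlapped near Cpox, sharing 682 bases at 14.4 and 15.1 kb, with 317 and 17 tags. Single CD71+Ter119-/lo Mtf2 peaks lay 12 kb from Alad and 16.3 kb from Alas2. No H3K27me3 peak overlapped these CD71+Ter119-/lo Mtf2 peaks near Tfrc, Cpox, Alad and Alas2.

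The globin genes held no peak of any list. Each cluster was taken as the span of its genes in the set. The alpha cluster (Hba-x, the embryonic gene, and the adult genes Hba-a1 and Hba-a2) lies at chr11:32176400-32197301. The beta cluster (the embryonic genes Hbb-y and Hbb-bh1 and an adult gene, Hbb-b1) lies at chr7:110975048-111001754. Other annotated globin genes lie outside these spans, namely Hbq1a, chr11:32200069-32200873, and Hbb-b2, chr7:110961038-110962510. With 50 kb flanks, 0 peaks of the 6 lists fell in the alpha locus and 1 in the beta locus. At each list's density along the genome, the alpha locus of 121 kb would hold 0.201 peaks of the WT CD71+Ter119high H3K27me3 list and 1.29 of the CD71+Ter119-/lo Mtf2 list, and the beta locus of 127 kb 0.211 and 1.36. Such small numbers leave little room for a deficit to be seen. The beta locus peak was Mtf2 in CD71+Ter119high cells, chr7:110929351-110930553, 1203 bases long with 30 tags, a score of 69.6, a fold enrichment of 10.9 and an FDR of 7.04%. It lay 44.5 kb from the cluster span, nearer than that to Hbb-b2, and 3.07 kb from the start of the olfactory receptor gene Olfr68.

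H3K27me3 began just beyond the alpha flank. In WT CD71+Ter119high cells a peak at the start of Rhbdf1, chr11:32121291-32124111, had 193 tags, a score of 835, a fold enrichment of 19.1 and an FDR of 0%, and lay 52.3 kb from the alpha cluster. Of that list, 99.9% had a score no higher. A pair of weaker peaks of the same list, with 32 and 22 tags, lay beside it inside Rhbdf1, and a peak of 22 tags lay at Sh3pxd2b on the other side, 50.7 kb from the cluster. Were the cluster taken to the end of Hbq1a, the Sh3pxd2b peak would fall inside the 50 kb flank. In WT CD71+Ter119-/lo cells a peak of 16 tags overlapped the strong Rhbdf1 peak, and neither Mtf2-null list had a peak within 100 kb of the alpha cluster. Between Rhbdf1 and the cluster, Nprl3, whose introns hold the known alpha globin enhancers, and Mpg had none. Within 100 kb of the beta cluster no H3K27me3 peak was called in any list, and the nearest of WT CD71+Ter119high cells was 1611 kb from Hbb-y.

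The starts of the adult alpha genes are mostly repeated sequence. Of 25-base words in 1 kb around the start, 9.30% at Hba-a1 and 5.20% at Hba-a2 were found once, beside 77.7% at Hbb-b1, 99.9% at Hba-x, 99.4% at Hbb-bh1 and 100% at Hbb-y. The part of repeated sequence in the lack of calls at Hba-a1 and Hba-a2 was not tested. Over the whole TSS windows of the 39 genes the median was 92%, with Hba-a2 lowest at 60% and Zfpm1 highest at 99.5%.

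**Figure D3:**
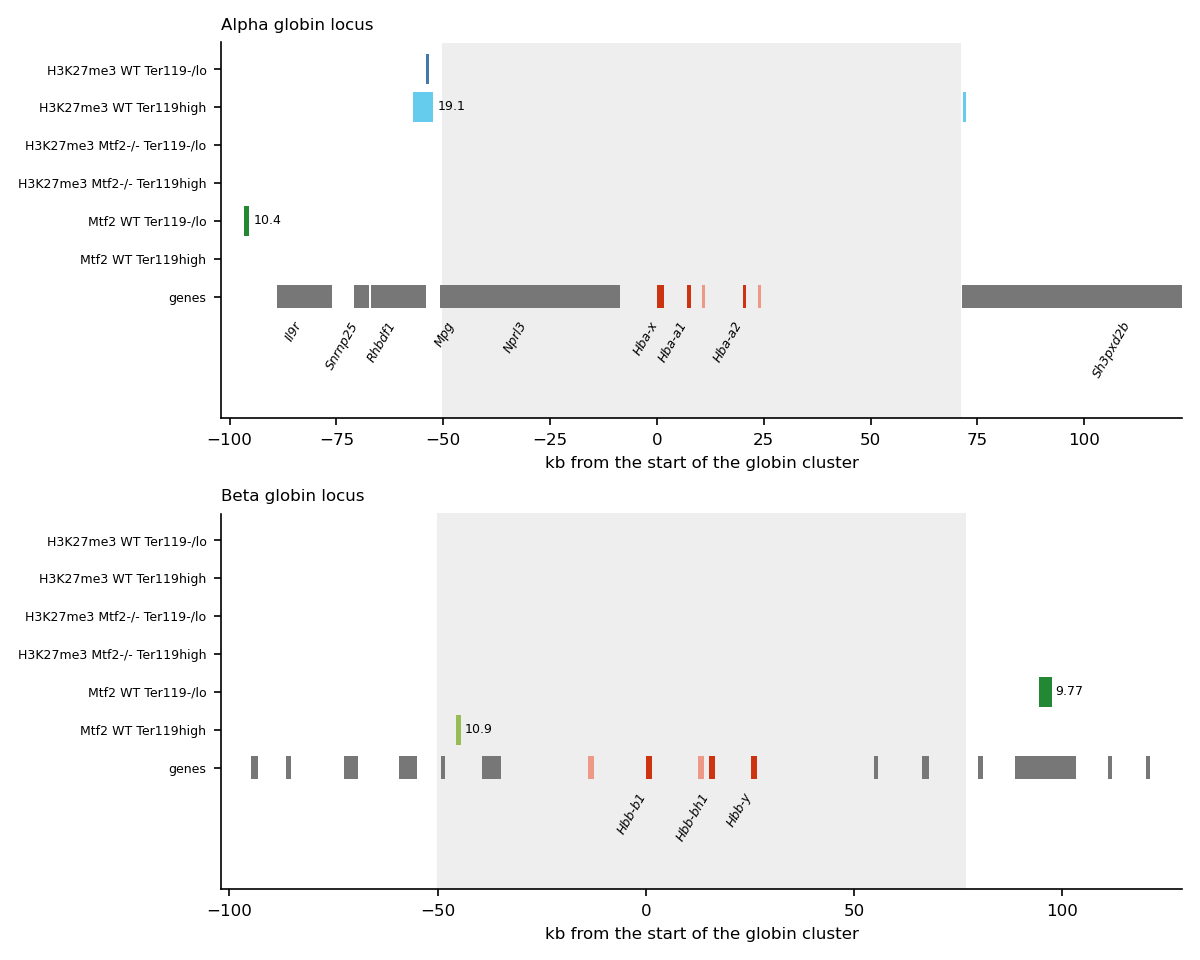
Peaks within 100 kb of the alpha (top) and beta (bottom) globin clusters, by kb from the start of the cluster; grey shading marks the cluster with 50 kb flanks, red bars the 6 globin genes of the set, light red other globin genes and dark grey other genes, with each list in its own row and the fold enrichment of 4 peaks printed beside them. Only the Mtf2 peak of CD71+Ter119high cells, at a fold enrichment of 10.9, falls inside a shaded region.

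The last 2 genes, Car2 (a carbonic anhydrase) and Trim10 (a RING finger gene of erythroid cells), had no peak. Mtf2 peaks near Car2 overlapped by 574 bases between the fractions, at 49.6 and 50 kb. A CD71+Ter119-/lo Mtf2 peak 20.9 kb from Trim10 had 23 tags and a fold enrichment of 19.8.

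Between genotypes, no gene kept its H3K27me3 peak within a fraction. In CD71+Ter119-/lo cells, 2 of 2 genes with a WT peak (Ank1 and Sptb) had none in the Mtf2-null list, beside 90.5% of the 1442 other genes with a WT peak. In CD71+Ter119high cells it was 3 of 3 (Ank1, Bcl11a and Zfpm1), beside 92.4% of 2948. The Mtf2-null list held a peak that the WT list lacked at 2 genes in CD71+Ter119-/lo cells (Rhd and Zfpm1), beside 2.29% of all other genes, and at 0 in CD71+Ter119high cells, beside 4.24%. Both Mtf2 and H3K27me3 were called in the same WT cells at 1 gene, Sptb, in CD71+Ter119-/lo cells, beside 3.60% of other genes, and at 0 in CD71+Ter119high cells, beside 1.04%. Sptb thus had Mtf2 in both fractions and H3K27me3 in 1 of them, while Ank1, with H3K27me3 in both, had no Mtf2 peak. The Mtf2-null libraries were the deeper ones and had lower minimum fold enrichments, 3.65 and 2.91, than the WT libraries, 4.01 and 3.85, in CD71+Ter119-/lo and CD71+Ter119high cells. Their lists had higher minimum tags per peak, 24 and 35 beside 16 and 21, and their IgG libraries were deeper too. Peaks with an FDR of at most 5% numbered 0 and 5791 in the Mtf2-null lists and 1 and 1312 in the WT lists. The part of these differences in the lost peaks was not tested.

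Distances gave a value for every gene, with or without a peak. From a TSS to the nearest WT H3K27me3 peak the median over the 39 genes was 161 kb in CD71+Ter119-/lo and 91.4 kb in CD71+Ter119high cells, beside 176 and 143 kb for the other genes. For Mtf2-null H3K27me3 it was 630 and 251 kb, beside 497 and 226 kb. For Mtf2 it was 77.8 kb in CD71+Ter119-/lo cells, beside 44.4 kb, and 229 kb in CD71+Ter119high cells, beside 216 kb. A CD71+Ter119-/lo Mtf2 peak lay within 50 kb of 13 of the 39 genes, or 33.3%, beside 53.5% of the others. A WT CD71+Ter119high H3K27me3 peak lay within 50 kb of 11 of them, or 28.2%, the same share as for the others. In WT CD71+Ter119-/lo cells an H3K27me3 peak lay within 50 kb of 4 genes, or 10.3%, beside 19.6%, although the median distance was the shorter one. The Mtf2-null H3K27me3 lists gave 5 genes, or 12.8% beside 8.61%, in CD71+Ter119-/lo cells and 3 genes, or 7.69% beside 16.3%, in CD71+Ter119high cells. Mtf2 in CD71+Ter119high cells gave 6 genes, or 15.4% beside 15.7%. The median and the share within 50 kb both placed the erythroid genes farther than the other genes from Mtf2 peaks of CD71+Ter119-/lo cells. Globin genes of a cluster and Stat5a and Stat5b are neighbours and share their nearest peaks, so the 39 distances are not independent.

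**Figure D4:**
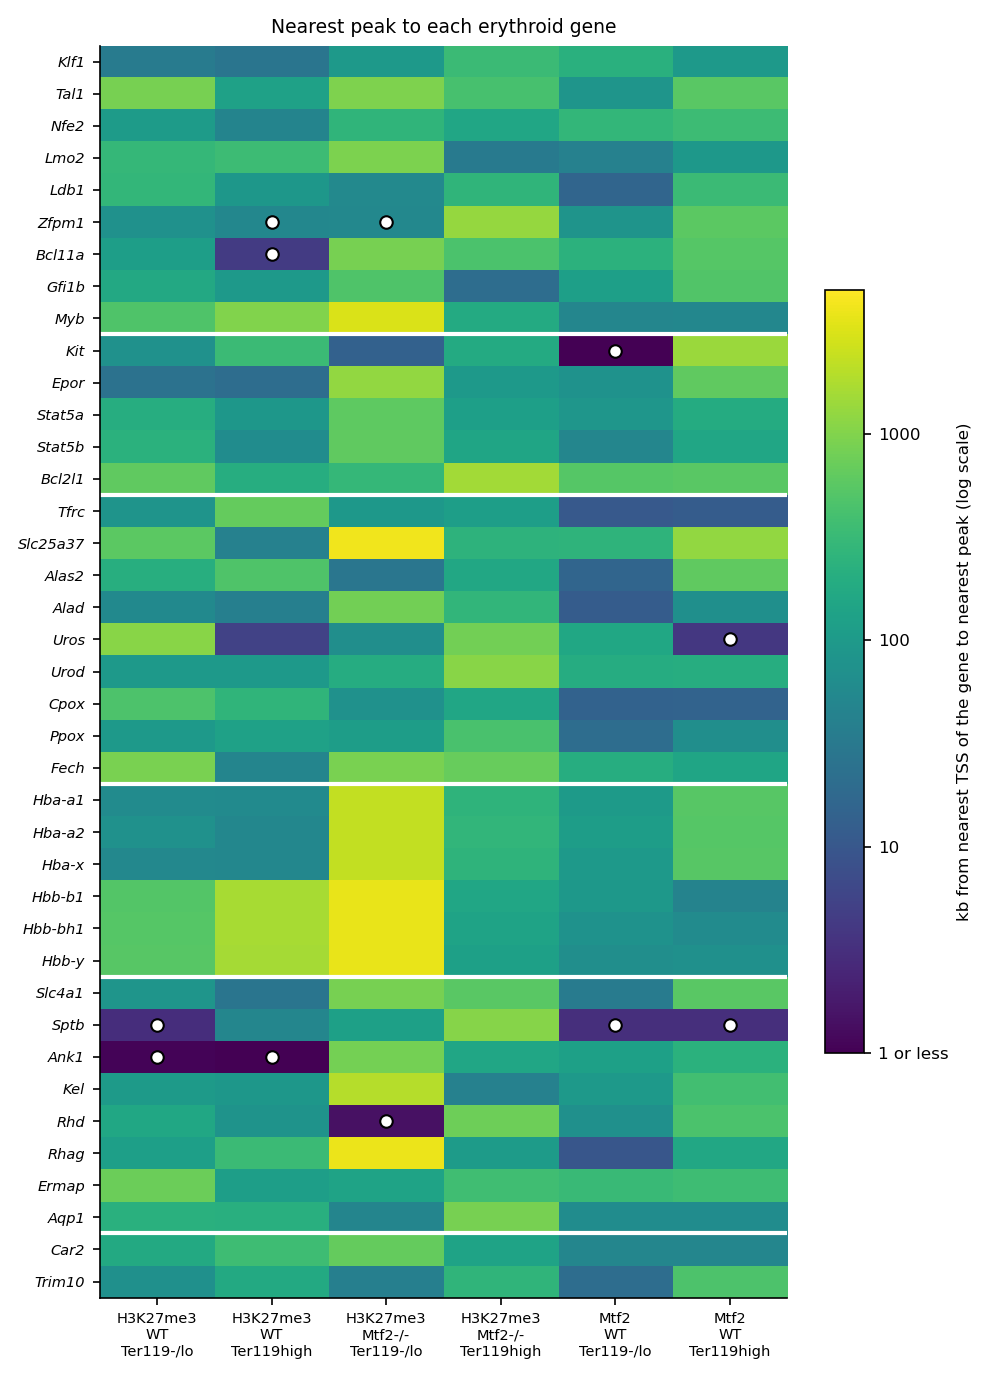
Distance in kb (log colour scale) from a TSS of each of the 39 erythroid genes to the nearest peak in each of the 6 lists, with genes in rows grouped by role (white lines) and white dots where a peak lay in the gene window. Dark cells are few, and the Mtf2-null CD71+Ter119-/lo column reaches 4127 kb at Slc25a37.

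Promoter sequence divided the genes. In 1 kb around the gene start, 16 of 39 were CpG island-like (at least 50% GC and a CpG ratio of at least 0.6), or 41.0%, beside 44.2% of the other genes. The median CpG ratio was 0.321, beside 0.549. All 6 globin genes were CpG-poor, with ratios from 0.0655 at Hba-x to 0.231 at Hba-a2, as were Klf1 (0.0783), Alas2 (0.149), Slc4a1 (0.193) and Epor (0.264). Ank1 (0.987), Zfpm1 (0.967) and Tfrc (0.892) had the highest ratios. Among the 16 island-like genes, 2 had a WT CD71+Ter119high H3K27me3 peak in the TSS window, or 12.5%, beside 18.2% of other island-like genes, and 2 had one in WT CD71+Ter119-/lo cells, beside 4.16%. Among the 23 others, 0 had a WT H3K27me3 peak in the TSS window in either fraction, beside 6.28% in CD71+Ter119high and 2.58% in CD71+Ter119-/lo cells. Their only peaks were Rhd in the Mtf2-null CD71+Ter119-/lo list, beside 1.08%, and Uros in the CD71+Ter119high Mtf2 list, beside 1.62%. Among island-like genes, Mtf2 peaks lay in the TSS window of 2 in CD71+Ter119-/lo cells (Kit and Sptb), beside 6.85%, and of 1 in CD71+Ter119high cells (Sptb), beside 1.35%, and Mtf2-null H3K27me3 at 0 in both fractions, beside 1.51% and 1.11%. Among the 23 others, 0 had a Mtf2-null CD71+Ter119high H3K27me3 peak, beside 2.05%, and 0 a CD71+Ter119-/lo Mtf2 peak, beside 9.71%. The class is that of the outermost start, while the TSS window takes in every start. The Mtf2 peaks of Kit and Sptb and the WT CD71+Ter119-/lo H3K27me3 peak of Sptb lay at internal starts that were not island-like, with CpG ratios of 0.440 and 0.411 at Kit and 0.211 at Sptb, and the island-like starts of both genes had no peak. Ank1 and Bcl11a did have peaks in the windows of island-like starts, but the sequence under most of these peaks was not island-like. In 1 kb around the summit, the CpG ratio was 0.973 for the WT CD71+Ter119high Ank1 peak at the gene start. It was 0.266 for the WT CD71+Ter119-/lo Ank1 peak and 0.119 for the Bcl11a peak. A further WT CD71+Ter119high Ank1 peak lay near an internal start that was not island-like. Uros was classed by its outermost start, and most of its TSS, about 1 kb further in, were CpG island-like.

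For contrast with the CpG-dense Ank1 start, the RefSeq promoters of Alas2 and Epor are shown, from 250 bases before to 50 after the start on GRCm38.p6, with capitals marking the GATA word AGATAA (here read on the other strand).
Alas2, chrX:150547167-150547466, plus strand: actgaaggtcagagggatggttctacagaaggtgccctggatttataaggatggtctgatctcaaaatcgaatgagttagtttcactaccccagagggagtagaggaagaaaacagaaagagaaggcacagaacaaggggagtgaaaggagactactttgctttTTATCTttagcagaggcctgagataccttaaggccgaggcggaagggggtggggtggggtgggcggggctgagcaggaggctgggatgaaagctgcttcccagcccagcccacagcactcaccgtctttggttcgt
Epor, chr9:21963527-21963826, minus strand: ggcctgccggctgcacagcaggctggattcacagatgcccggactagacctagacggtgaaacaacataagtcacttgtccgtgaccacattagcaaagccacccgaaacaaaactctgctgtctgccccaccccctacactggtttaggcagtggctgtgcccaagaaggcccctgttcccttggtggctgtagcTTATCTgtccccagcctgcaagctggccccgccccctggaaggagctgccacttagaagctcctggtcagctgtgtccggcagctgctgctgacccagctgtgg
These promoters held 6 and 7 CG dinucleotides in 300 bases. RefSeq gives some genes several starts, and a gene was counted where any of its promoters held the word. On either strand, AGATAA was found in 9 of the 30 erythroid genes with a RefSeq promoter (Alas2, Bcl2l1, Cpox, Epor, Kel, Ldb1, Rhd, Tal1 and Trim10), or 30%, beside 12.7% of all 27025 genes. Counted by promoter, it was in 9 of 41, or 22%, beside 11.2% of 32851. The looser CACCC word CCNCNCCC was found in 22, or 73.3%, beside 51.9%, and CCACACCC, one of its forms, in 0, beside 4.09%. A match is a description of the letters, not of a bound site.

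**Figure D5:**
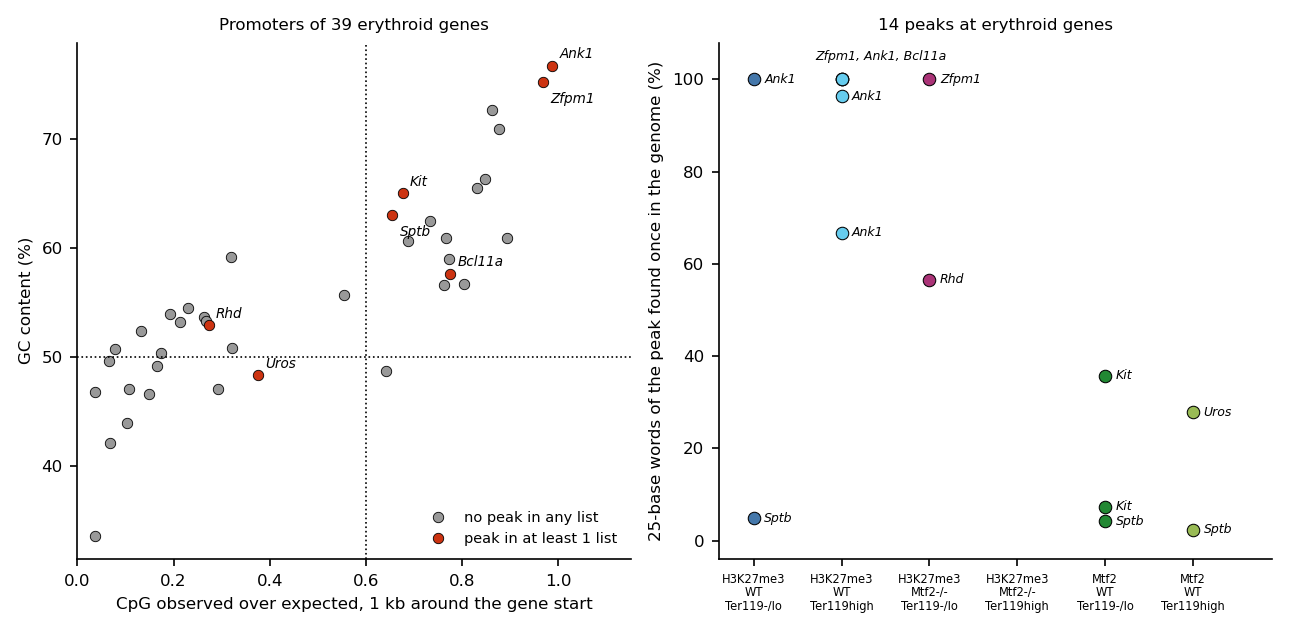
Left, GC content (%) against the ratio of observed to expected CpG in 1 kb around the start of each of the 39 genes, with the 7 genes that had a peak in any list in red and dotted lines at 50% and 0.6; right, share (%) of 25-base words found once in the genome for the 14 peaks at these genes, by list. The Mtf2 peaks lie at or under 35.8%, and 4 of the 5 WT CD71+Ter119high H3K27me3 peaks at or above 96.4%, while those of WT CD71+Ter119-/lo H3K27me3 lie at 100% (Ank1) and 4.82% (Sptb).

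Related genes outside the set were read from fixed lists. Of 14 other iron and heme genes, WT H3K27me3 lay in the TSS window of 0 in both fractions. Of 9 other globin and globin regulator genes it lay at 1 in CD71+Ter119-/lo and 3 in CD71+Ter119high cells. Of 16 other membrane and skeleton genes it lay at 0 and 1, and of 13 other regulators at 1 and 1. In all, that made 2 of 52 (3.85%) and 5 of 52 (9.62%), near the 3.28% and 11.6% of all genes outside the erythroid set. Klf2, a Krüppel-like factor that acts with Klf1 on embryonic globin, was the only one with a score of at least 100. Its WT CD71+Ter119high peak, chr8:74842685-74844721, had 121 tags, a score of 436, a fold enrichment of 18.5 and an FDR of 1.52%, with its summit 0.712 kb from a TSS. Of 52, the Mtf2-null lists reached 2 (3.85% beside 1.27%) and 0 (beside 1.63%) and the Mtf2 lists 2 (3.85% beside 8.45%) and 1 (1.92% beside 1.50%), in CD71+Ter119-/lo and CD71+Ter119high cells.

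Among the markers of the cells that a sort could hold, the defining erythroid markers Klf1, Tfrc, Epor, Hbb-b1, Hba-a1 and Slc4a1 had no peak of any list in the gene window. Of the other genes, 34.0% had one. Of 26 markers of hepatocytes, megakaryocytes, macrophages, granulocytes, B cells and endothelium, 4 had a WT CD71+Ter119high H3K27me3 peak in the TSS window, or 15.4% beside 11.6% of the other genes (Ebf1, Pax5, Hnf4a and Kdr), and 1 had a WT CD71+Ter119-/lo peak, Itga2b, or 3.85% beside 3.28%. The Mtf2-null H3K27me3 lists had 1, Emr1, in CD71+Ter119-/lo cells, or 3.85% beside 1.27%, and 0 in CD71+Ter119high cells beside 1.63%. Mtf2 lay at 2, Afp and Mertk, in CD71+Ter119-/lo cells, or 7.69% beside 8.45%, and at 0 in CD71+Ter119high cells beside 1.50%. In the gene window the CD71+Ter119-/lo Mtf2 list reached 8 of the 26, or 30.8% beside 18.8%, and the CD71+Ter119high Mtf2 list 7.69% beside 5.15%. WT H3K27me3 reached 7.69% beside 6.46% in CD71+Ter119-/lo and 15.4% beside 13.2% in CD71+Ter119high cells. Mtf2-null H3K27me3 reached 11.5% beside 2.90% and 7.69% beside 5.25%, in the same order. These are marks at the genes and not levels of other cells.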

How the data were processed

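Each ChIP library (6) was compared by the authors with an IgG library (4 in all) of its fraction and genotype. Alignment by the authors used Bowtie2 2.2.3 on mm9, and MACS 1.3.7 made the peak lists, per the labels and file headers (p cutoff 1e-05, band width 300, model fold 32, tag size 25, local background over 1, 5 and 10 kb). The labels state that the genome was masked and blacklisted regions left out. Whether replicates were pooled is not given in the sources used here. The deposited counts are raw tags in each peak. The fold enrichment that the authors deposited is a ratio to local IgG signal, the deposited score is the peak's p on a −log10 scale times 10, and the deposited FDR is a percent. Unique tags ranged from 15669899 to 67169672 per ChIP library and from 12345800 to 39667267 per IgG library. Reads are not independent molecules, and intervals cover counting error only. IgG libraries have no list of their own.

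The 39 genes and all gene lists were chosen with earlier results of these data known. Genes and TSS (69963) came from GENCODE M1 on NCBIM37, the assembly of mm9, with chrM left out. Windows and peaks overlapped at 1 shared base. Positions are 1-based and 0 peaks lay beyond a chromosome end. All symbols matched by symbol or RefSeq synonym, except that the globin regulator list matched 9 of 12. CpG content was read in 1 kb around the gene start. All 25-base words of the regions were counted on both strands of NCBIM37; read length was not known, so this describes sequence and not the authors' alignments. Promoters came from RefSeq (GRCm38.p6), 30 of 39 genes matched, and coordinates of the 2 assemblies were not mixed. No test was made, as each condition has 1 library; member counts stand beside the same share over 22328 other genes. By rule, every gene was accounted for, full values were given for peaks within 5 kb of a TSS, in the globin loci or of highest fold in a list, sequence for the peak nearest a TSS in each list, and related genes were named with a score of at least 100; the genes behind smaller counts were named after their values were seen. Overlap and word counting were tested on simulated data, and 2000 of 2000 simulated overlaps were right. Alternatives kept scores from 100 upward, FDR values up to 5%, or 1407 peaks per list, and tried other windows and flanks, the summit, 500 bases for CpG content and, added after seeing the data, only peaks with at least 50% of summit words found once. Software was matplotlib 3.10.9, scipy 1.17.1, pandas 2.3.3, numpy 2.4.6 and Python 3.11.15. Expression and ChIP-qPCR values were not analysed here. One erythroid marker and one primer pair are not reported here.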

Additional observations from a re-analysis of the deposited data

Results flagged for a closer look

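The exon near the 3′ end of Zfpm1 stood out because the H3K27me3 calls changed in opposite ways between genotypes in the 2 fractions. In CD71+Ter119high cells a peak with a fold enrichment of 8.99 was called in WT and none in Mtf2-null cells. In CD71+Ter119-/lo cells none was called in WT and a peak with a fold enrichment of 8.20 in Mtf2-null cells, where its FDR was 100%. With 1 library per condition the difference was not tested.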

How the results depend on the processing

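Of the values recomputed, 69 stayed within 1.5 times of the reported value and 30 moved. Among the 69 are counts of 0 that a stricter filter or a narrower window could not raise. Unless stated, the cause was not tested. With a score of at least 100, genes with a peak fell to 1, or 2.56%, in 3 lists. These were WT CD71+Ter119-/lo H3K27me3 (Sptb), beside 0.305% of the other genes, Mtf2-null CD71+Ter119-/lo H3K27me3 (Zfpm1), beside 0.0269%, and CD71+Ter119high Mtf2 (Sptb), beside 0.394%. Lost WT peaks in CD71+Ter119-/lo cells also fell to 1 gene, and the beta globin locus to 0 peaks. At an FDR of at most 5% these 4 gene counts, the genes with both marks in CD71+Ter119-/lo cells and the beta locus were all 0, because 1, 0 and 0 peaks remained in the 3 lists. With 1407 peaks per list, WT CD71+Ter119-/lo H3K27me3 lay at 1 gene, beside 1.85% of the other genes. CD71+Ter119-/lo Mtf2 then lay at 0 genes beside 1.67%, in place of 5.13% beside 18.8%, and CD71+Ter119high Mtf2 at 1 beside 1.47%. Lost peaks were 1 and both marks 0 in CD71+Ter119-/lo cells, with 0 beta peaks. A 1 kb window gave 1 gene for WT CD71+Ter119-/lo H3K27me3, beside 5.33% of the other genes, and 1 for its lost peaks. A 10 kb window gave 1 gene with both marks in CD71+Ter119high cells (Uros), and the TSS window without the gene body gave 1 in Mtf2-null CD71+Ter119-/lo cells. With 100 kb flanks the alpha locus held 6 peaks and the beta locus 2, and with 10 kb flanks the beta locus held 0. Chosen after seeing the data, keeping peaks with at least 50% of summit words found once gave 1 gene for WT CD71+Ter119-/lo H3K27me3 (Ank1), 1 for its lost peaks, 1 for Mtf2-null CD71+Ter119-/lo H3K27me3 (Zfpm1), 0 for each Mtf2 list and 0 for both marks in CD71+Ter119-/lo cells. The WT CD71+Ter119high H3K27me3 count of 3 stayed within 1.5 times of that value, but its genes changed. Bcl11a dropped out, leaving 2, with scores of at least 100, FDR of at most 5%, 1407 peaks per list and the 1 kb window. Zfpm1 dropped out without the gene body, leaving 2, and the 10 kb window gave 4. Its count of lost peaks moved the same way. The Mtf2-null CD71+Ter119high count was 0 in every alternative run for it, of which only the 10 kb window could have raised it. No paired analysis was possible because each condition has 1 library and no result comes from a test. The lists hold only peaks past the authors' cutoff, so signal under it limits every absence given here, in the WT and the Mtf2-null lists alike.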

Other observations

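The peaks at these genes fell apart in a property that the choice of genes did not use, the share of 25-base words at the summit found once in the genome. It was 0% to 49.0% at 8 of the 14 peaks, namely the Mtf2 peaks at Kit, Sptb and Uros, the Mtf2-null H3K27me3 peak at Rhd, and among WT H3K27me3 peaks that at Sptb (12.5%) and 1 intronic peak of Ank1 (31.5%). At the Zfpm1 and Bcl11a peaks and the other 3 Ank1 peaks it was 94.0% to 100%. The whole lists were split in a like way, so this is not particular to these genes. The same share was under 50% at 98.9% and 97.7% of all Mtf2 summits in CD71+Ter119-/lo and CD71+Ter119high cells. It was under 50% at 82.9% and 13.3% of WT H3K27me3 summits and at 34.0% of Mtf2-null CD71+Ter119-/lo H3K27me3 summits.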
